A study of Macaca fascicularis with 2 samples.

Results

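The kinesin motor genes were taken as all features whose symbol is KIF followed by a number and optional letters or digits, which gave 38 of the 28845 features in the tables. Their transcripts were followed by single-cell RNA sequencing of cynomolgus monkey (Macaca fascicularis) testis, using droplet barcoding of 3′ ends (10x Genomics, version 3). One library, UAT, came from a unilateral abdomen testis, that is, a testis placed in the abdomen as artificial cryptorchidism, and the other, CST, from the contralateral testis in the scrotum. No genetic change, drug, age or time after surgery is given in the sources used here, nor is the number of animals. Each position had 1 library, so no difference below has a replicate check and no p-value was computed. All intervals are 95% intervals that cover counting error only.

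Kinesins are motor proteins that use ATP to move along microtubules, mostly toward the plus end, or to take microtubule ends apart. Some build the spindle, move chromosomes and finish cytokinesis, some carry proteins into cilia and flagella or sit along the axoneme, and yet others carry vesicles, organelles and RNA through the cytoplasm. In the testis all of these structures follow each other in a single lineage, as spermatogonia divide by mitosis, spermatocytes pass through meiosis, and spermatids build the acrosome, the manchette and the sperm tail.

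Of the 38 symbols, 36 reached at least 30 unique molecular identifiers (UMIs, counts of original RNA molecules) and 10 CPM (UMIs per 1000000 UMIs of the class) in at least 1 class of cells, and are called measured. The other 2 were KIF12, whose highest named class had 1.26 CPM, and KIF28P, a name of the pseudogene form, at 5.50 CPM. That level of KIF28P was in CST pericyte or vascular smooth muscle-like cells, where 3 counts make 16.5 CPM. The next highest for KIF28P was 4.37 CPM, in CST round spermatid-like cells. KIF1BP fits the pattern by its spelling but encodes a protein that binds kinesins and is no motor. KIF1B and KIF25 were not among the feature names. Levels were compared within a gene across classes and not between genes, because a 3′ UMI level is not on a per-length scale.

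The UAT library held 12564 barcodes and 111047299 UMIs and the CST library 15952 barcodes and 197225937 UMIs. After removal of thin barcodes and scored doublets, 11131 and 13201 cells were left, and 50 barcode sequences were shared by the libraries. Clusters were called X-like from marker genes. Germ cells of UAT were 281 undifferentiated spermatogonia-like, 11 differentiating spermatogonia-like, 3 spermatocyte-like and 1 spermatid-like cells. CST had 560 undifferentiated and 408 differentiating spermatogonia-like, 510 early and 2229 late spermatocyte-like, 2628 round and 3107 elongating spermatid-like cells. The Sertoli-like class had 805 cells in UAT and 3 in CST, so it has a level in UAT alone. Protamine RNA was found in CST cells of every class: PRM1, which packs sperm DNA, stood at 1616 CPM in CST undifferentiated spermatogonia-like cells and at 0.236 CPM in those of UAT. Spermatid genes put the free RNA in CST at 3.93% of UMIs in undifferentiated spermatogonia-like, 4.86% in stromal-like and 16.1% in the T or NK-like cells. The level that this share gives a kinesin is set beside the UAT over CST values of the members that were lower in undifferentiated spermatogonia-like, stromal-like, peritubular myoid-like and endothelial-like cells. Free RNA in UAT was not estimated.

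Of the 36 measured kinesins, 30 (83.3%) had their highest CST class among germ cells, as did 62% of the 17143 features measured by the same rule. Of the 30, the highest class of 3 was undifferentiated and of 11 differentiating spermatogonia-like, of 5 early and of 5 late spermatocyte-like, and of 4 round and of 2 elongating spermatid-like. The remaining 6 were highest in a somatic class: KIF7 and KIF13A in peritubular myoid-like, KIF1C in endothelial-like, KIF16B in macrophage-like and 2 in lymphoid cells. KIF13B and KIF21B were highest in the T or NK-like class, on 9 and 10 UMIs, and KIF21B had 33.7 CPM there and 33.3 CPM in elongating spermatid-like cells. In UAT, 27 members reached the same minimum in their highest class, which was the undifferentiated spermatogonia-like class for 15, Sertoli-like for 4, endothelial-like for 3, peritubular myoid-like for 2, mast-like for 2 and T or NK-like for 1.

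**Figure D1:**
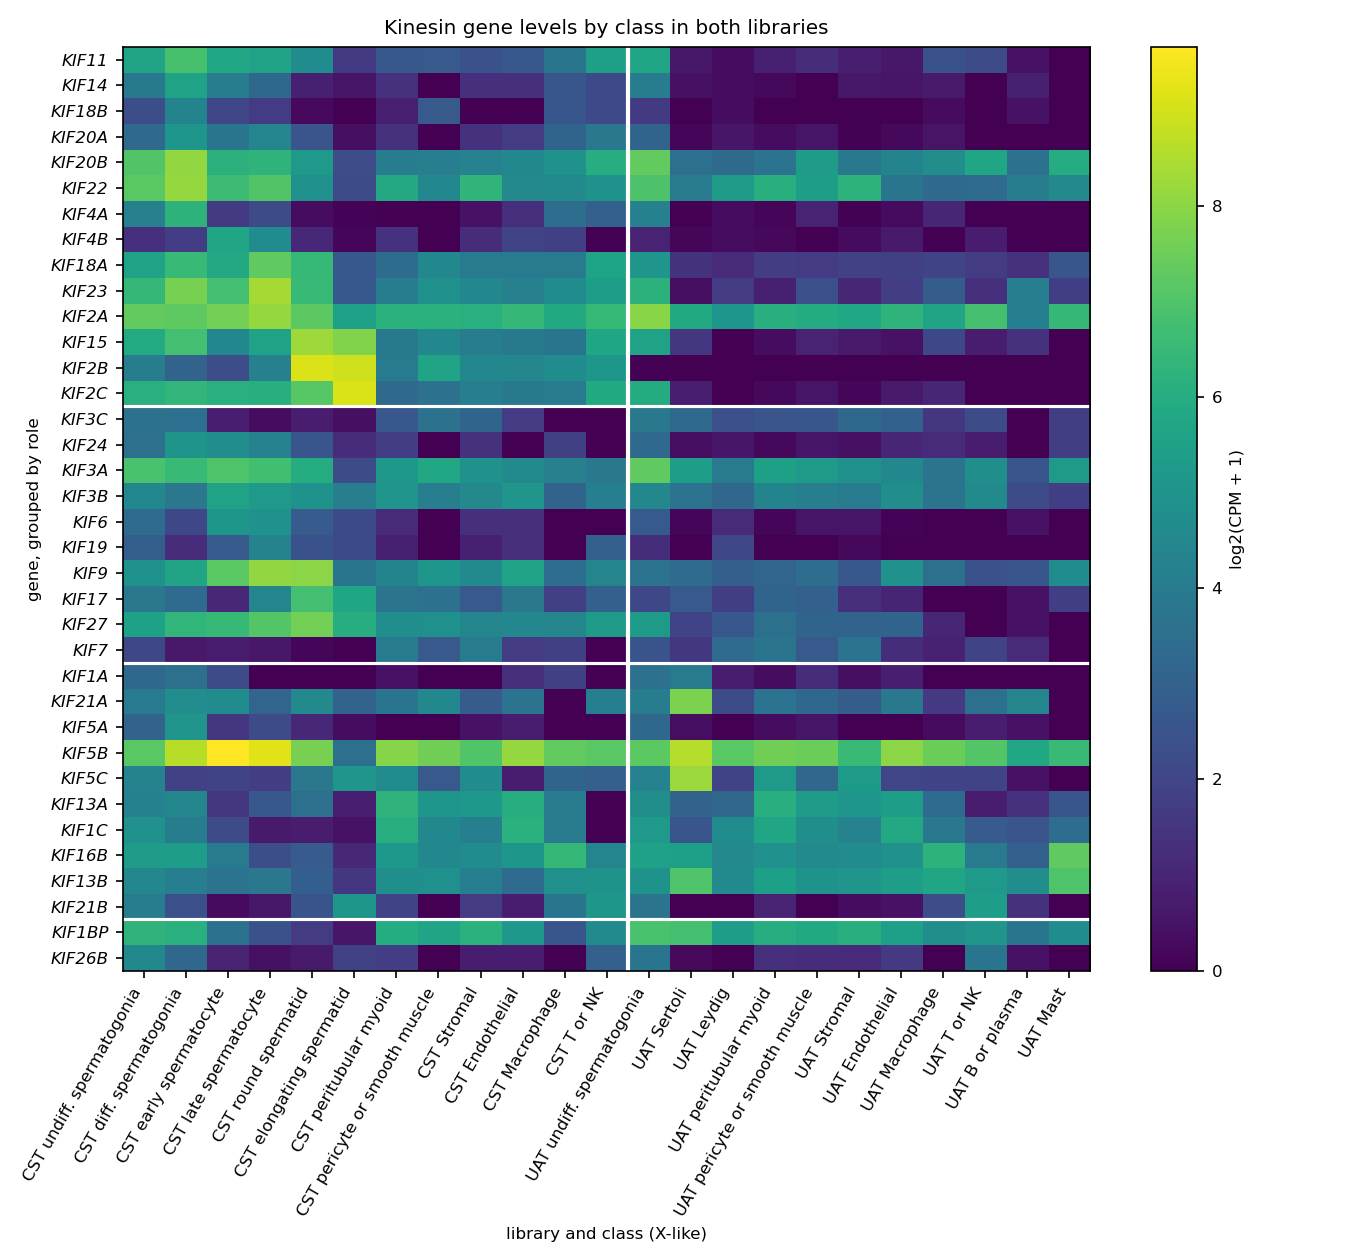
Level of the 36 measured members (rows, grouped by role from division to ciliary, cargo and other) in each class with at least 50 cells (columns, CST left and UAT right of the white line), as log2(CPM + 1) of summed UMIs. KIF2B runs from 562 CPM in CST round spermatid-like cells to 0 in every UAT class, and KIF5C is bright in UAT Sertoli-like cells at 292 CPM.

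Among the division kinesins, KIF4A and KIF4B took opposite courses between differentiating spermatogonia-like and early spermatocyte-like cells. Both are chromosome-bound motors that compact chromatids and shorten the central spindle, and KIF4B is an intronless copy of KIF4A. KIF4A had 17.6 CPM in CST undifferentiated spermatogonia-like cells, 74.2 in differentiating ones, 2.15 in early and 3.74 in late spermatocyte-like cells, 0.247 in round and 0.0699 in elongating spermatid-like cells. KIF4B had, in the same order, 1.505, 2.33, 50.8, 24.8, 1.09 and 0.116 CPM. Between differentiating spermatogonia-like and early spermatocyte-like cells, KIF4B was 21.8-fold higher (12.4 to 42.3). In CST, late spermatocyte markers summed to 8743 CPM in the early spermatocyte-like class and to 8780 CPM in the late one. The timing of this step was thus not resolved to the entry into meiosis. From spermatogonia-like to spermatocyte-like cells as a whole, KIF4A changed by a ratio of 0.0631 (0.0520 to 0.0761) and KIF4B by 17.7 (11.2 to 30.0). The copies are nearly identical in sequence, so reads could be split or moved between them by the counting, and both profiles are uncertain to that extent.

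The kinesin-13 proteins remove tubulin from microtubule ends, and their genes parted in spermatids. KIF2A, which acts at spindle poles and in neurons, stood at 162, 154, 199, 280, 149 and 45.6 CPM along the 6 CST germ classes, highest in late spermatocyte-like cells. KIF2B, which acts at kinetochores, stood at 15.6, 7.38, 3.93, 18.2, 562 and 494 CPM. KIF2C (MCAK), a centromere depolymerase, stood at 69.5, 80.6, 69.0, 67.6, 142 and 553 CPM. The free RNA level of KIF2B was 12.3 CPM in undifferentiated and 7.83 CPM in differentiating spermatogonia-like cells, close to its measured levels there. KIF2B was high in both spermatid classes, whereas KIF2C was highest in the elongating one. Spermatid-like over spermatocyte-like ratios were 42.1 for KIF2B (38.8 to 45.7), 4.91 for KIF2C (4.74 to 5.10) and 0.403 for KIF2A (0.392 to 0.415). Within elongating spermatid-like cells, KIF2B had 965 CPM in a cluster of 357 cells and 38.4 CPM in one of 579 cells whose median was 1251 UMIs, against 27410 in the former. KIF2B had no UMI in the whole UAT library and 61727 in CST. With a floor of 3 counts over the UAT library, it was 11585-fold lower there, a value set by that floor. The upper interval bound of its UAT over CST ratio was 1.06e-04, and only 1 spermatid-like cell was found in UAT.

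KIF15 and KIF23, both motors of the dividing cell, were high at different later stages. KIF15, which helps KIF11 to keep the spindle poles apart, had 59.2, 107, 22.0, 46.4, 305 and 224 CPM along the germ classes. Its spermatid-like over spermatocyte-like ratio was 7.24 (6.90 to 7.61). KIF23, the motor of centralspindlin in cytokinesis and in the intercellular bridges of germ cells, had 84.8, 201, 109, 323, 92.5 and 5.38 CPM. KIF23 was 323 CPM over all late spermatocyte-like cells and 366 CPM in their cluster of 532 cells led by AURKA, which encodes a kinase of spindle poles. KIF18A, which dampens chromosome movements at the metaphase plate, followed a similar course with 46.9, 89.9, 55.2, 157, 86.9 and 5.12 CPM. Both were highest in late spermatocyte-like cells and lowest in elongating spermatid-like cells.

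A larger set of division kinesins peaked in the differentiating spermatogonia-like class. KIF11, the motor that pushes spindle poles apart, had 48.4, 115, 53.3, 46.5, 24.9 and 2.12 CPM. KIF22, which pushes chromosome arms outward, had 144, 277, 96.9, 132, 28.9 and 3.73 CPM. KIF20B, a motor of late cytokinesis, had 129, 275, 73.2, 77.4, 35.6 and 3.89 CPM. KIF14, KIF18B and KIF20A, motors of the midbody, of astral microtubule length and of the central spindle, also peaked in differentiating spermatogonia-like cells at 46.8, 19.4 and 33.0 CPM. Against undifferentiated cells, the differentiating class was 4.23-fold higher for KIF4A (3.27 to 5.53), 3.39-fold for KIF14 (2.52 to 4.64), 2.37-fold for KIF11 (2.01 to 2.81) and 1.93-fold for KIF22 (1.75 to 2.13).

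**Figure D2:**
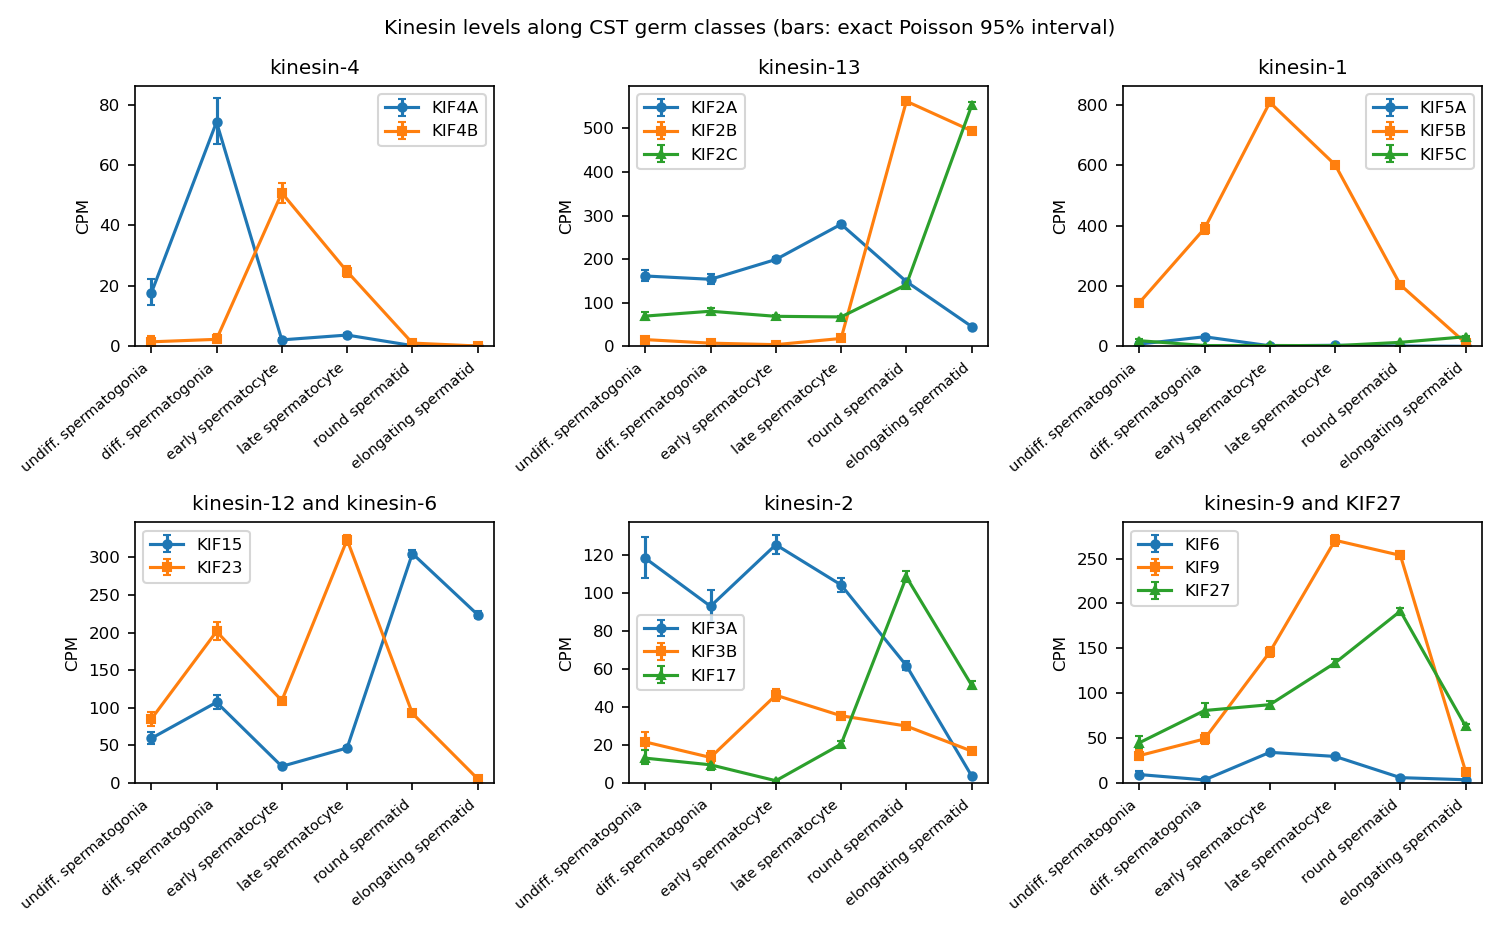
CPM (linear axes from 0, with exact Poisson 95% intervals) of kinesin families in the 6 CST germ classes, from undifferentiated spermatogonia-like to elongating spermatid-like cells. KIF4A is highest at 74.2 CPM in differentiating spermatogonia-like cells and KIF4B at 50.8 CPM in early spermatocyte-like cells. KIF2B and KIF15 are highest in round spermatid-like cells at 562 and 305 CPM.

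Ciliary and flagellar kinesins were mostly high in spermatocyte-like and round spermatid-like cells. KIF3A and KIF3B form the heterotrimeric kinesin-2 that drives intraflagellar transport. KIF3A had 118, 93.0, 125.5, 104, 61.8 and 3.66 CPM along the 6 germ classes, and KIF3B had 21.6, 13.4, 46.2, 35.4, 29.9 and 16.7 CPM. KIF3A was low in elongating spermatid-like cells relative to its other stages, and KIF3B was lower in differentiating spermatogonia-like cells than there. The non-motor subunit, KIFAP3, took another course, with a spermatocyte-like over spermatogonia-like ratio of 0.2499 and a spermatid-like over spermatocyte-like ratio of 4.23 (4.00 to 4.48). KIF17, the homodimeric kinesin-2, known in male germ cells for carrying the coactivator ACT, had 13.04, 9.52, 1.13, 20.4, 108.5 and 51.4 CPM. KIF3C, a further kinesin-2, was highest in undifferentiated spermatogonia-like cells at 11.0 CPM and had 0.753 CPM in early spermatocyte-like cells.

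KIF9, a motor of the axonemal central pair, had 30.3, 49.0, 146, 270.3, 254 and 12.5 CPM. KIF27, a relative of KIF7 that acts in building motile cilia, had 44.6, 80.6, 87.1, 134, 191 and 63.0 CPM. KIF6, a kinesin-9 like KIF9, had 9.28, 3.30, 34.0, 29.5, 5.85 and 3.47 CPM. KIF6 was thus highest in early and late spermatocyte-like cells, KIF9 in late spermatocyte-like and round spermatid-like cells, and KIF27 in round spermatid-like cells. KIF19, which limits cilium length, was highest in late spermatocyte-like cells at 18.7 CPM. KIF24, which restrains the start of cilium growth at centrioles, was highest in differentiating spermatogonia-like cells at 31.3 CPM. KIF7, a regulator of Hedgehog signalling at the cilium tip, was at or below 3.26 CPM in the germ classes and had 14.9 CPM in CST peritubular myoid-like and 14.8 CPM in CST stromal-like cells.

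Of 10 cargo kinesins measured, 5 were highest in a CST germ class (KIF5B, KIF5A, KIF5C, KIF21A and KIF1A) and 5 in a somatic one. KIF5B is the ubiquitous heavy chain of conventional kinesin, and KIF5A and KIF5C are its forms known from neurons. KIF5B had 144, 390.1, 808, 601, 203.5 and 10.9 CPM along the germ classes, KIF5A had 7.52, 31.9, 1.88, 3.68, 1.17 and 0.256 CPM, and KIF5C had 18.8, 2.72, 2.96, 2.36, 13.4 and 32.0 CPM. KIF5B was highest in early spermatocyte-like cells, KIF5A in differentiating spermatogonia-like cells, and KIF5C at both ends of the lineage. The kinesin light chains, which link conventional kinesin to cargo, also differed by stage. KLC1 had a spermatid-like over spermatocyte-like ratio of 0.0868 (0.0678 to 0.110) and KLC3, a light chain known from the sperm tail, one of 64.4 (45.0 to 95.5).

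KIF21B, a slow motor that also limits microtubule growth, had 16.0, 4.08, 0.215, 0.555, 4.76 and 33.3 CPM, and 165 CPM in the elongating spermatid-like cluster with a median of 1251 UMIs. KIF21A, its paralogue, had its highest CST level in differentiating spermatogonia-like cells at 25.4 CPM. KIF13A and KIF13B, carriers of endosomes and membrane receptors, were at or below 21.1 CPM in every CST germ class, and KIF13A reached 76.3 CPM in peritubular myoid-like cells. KIF1C, a vesicle motor, had 70.6 CPM in CST endothelial-like and 65.1 CPM in peritubular myoid-like cells and at most 0.659 CPM in late spermatocyte-like and later cells. KIF16B, an early endosome motor, had 85.9 CPM in macrophage-like cells and 38.4 and 41.8 CPM in the spermatogonia-like classes. KIF1A, a synaptic vesicle motor, was highest in CST in differentiating spermatogonia-like cells at 10.9 CPM. Of the other members, KIF26B, an atypical kinesin, peaked in undifferentiated spermatogonia-like cells at 22.1 CPM, and KIF1BP in the same class at 77.5 CPM.

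Counted over spermatocyte-like against spermatogonia-like cells of CST, 32 members were measured, of which 6 were at least 2-fold higher and 12 at least 2-fold lower. Of all 11593 features measured, 23% were higher and 47.4% lower by the same rule, so the kinesins had a share of 18.8% higher and 37.5% lower. Their median log2 ratio was -0.43, against -0.85 over all features. The higher ones were KIF4B, KIF9 (5.43-fold), KIF6 (5.29-fold), KIF19 (3.79-fold), KIF5B (2.41-fold) and KIF3B (2.34-fold), 4 of them ciliary. The lower ones were KIF26B, KIF3C, KIF4A, KIF1C, KIF1BP, KIF5A, KIF16B, KIF13A, KIF18B, KIF14, KIF20B and KIF15. Of the cargo kinesins, 1 of 7 measured was higher and 4 were lower, and of the division kinesins 1 of 14 was higher and 5 were lower.

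For spermatid-like against spermatocyte-like cells, 25 members were measured, with 6 at least 2-fold higher and 15 at least 2-fold lower. The background was 28% higher and 46.8% lower of 9922 features, and the kinesin shares were 24% and 60%, with a median log2 ratio of -1.54 against -0.84. The higher ones were KIF21B (43.0-fold), KIF2B, KIF5C (8.53-fold), KIF15, KIF17 (6.37-fold) and KIF2C, from all 3 role groups. The lower ones were 9 of the 12 measured division kinesins (KIF4B, KIF14, KIF22, KIF20A, KIF23, KIF20B, KIF11, KIF2A and KIF18A), 4 ciliary ones (KIF6, KIF24, KIF19 and KIF3A) and the cargo motors KIF5B and KIF13B. Elongating spermatid-like cells put 149700 CPM into PRM1 alone. Scaling to the median feature instead of the total moved the log2 ratios up by 0.71 here and by 0.26 in the step before. In the spermatid step KIF3A, KIF13B, KIF2A and KIF18A then fell short of 2-fold, which left 11 lower and 6 higher. In the spermatocyte step the counts became 11 lower and 7 higher.

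Genes that work with kinesins were counted in the same way, without scaling to the median feature. The shares over all features were 23% higher and 47.4% lower in the spermatocyte step. In the spermatid step they were 28% higher and 46.8% lower. Of 22 intraflagellar transport genes measured, 16 were at least 2-fold higher in spermatocyte-like cells and 1 was lower, with IFT20 at 3.96-fold, IFT57 at 3.71-fold and IFT22 at 3.45-fold. In spermatid-like cells 14 of 21 were then lower and 0 higher, with a median log2 ratio of -1.32 against -0.845 over all features. Of 14 division partners of kinesins, 7 were lower and 1 higher in spermatocyte-like cells, with ratios of 0.309 for TOP2A, 2.15 for BIRC5 and 1.36 for PLK1, and 13 of 13 measured were lower in spermatid-like cells. The 3 division kinesins that were higher in spermatid-like cells, KIF2B, KIF2C and KIF15, thus differed in direction from the 13 partners measured there. Of the motors named outside the KIF pattern, CENPE, a kinetochore motor, had ratios of 0.471 and then 0.0594, and STARD9, a centrosome motor, 0.146 and then 8.45. Dynein and dynactin genes were split, with 8 of 18 higher and 5 lower in spermatocyte-like cells, and 2 higher and 11 lower in spermatid-like cells.

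Between the positions, the spermatogonia-like cells as a whole had lower levels of many kinesins in the abdomen, and most of that difference was absent among undifferentiated cells. Over all 292 UAT and 968 CST spermatogonia-like cells, 32 members were measured, of which 16 were at least 1.5-fold lower and 5 at least 1.5-fold higher in UAT. Of all 11230 features, 22.4% were lower and 18.6% higher, against 50% and 15.6% of the kinesins. The median log2 ratio was -0.52 over the kinesins and -0.05 over all features. KIF2B, one of the 16, had 0 UMIs in UAT and 10.95 CPM in CST, with a free RNA level of 9.78 CPM. Differentiating cells were 11 of the 292 in UAT and 408 of the 968 in CST.

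Within undifferentiated spermatogonia-like cells alone, a comparison chosen after the pooled values were seen, 29 members were measured, 4 lower and 2 higher. The background was 14.5% lower and 9.09% higher of 11256 features, the kinesin shares were 13.8% and 6.90%, and the median log2 ratio was 0.04 against -0.02. KIF4A stood at 19.2 (UAT) and 49.5 CPM (CST) over all spermatogonia-like cells, a ratio of 0.389 (0.305 to 0.491), but at 18.2 and 17.6 CPM in undifferentiated ones, a ratio of 1.03 (0.738 to 1.45). KIF5B went from 0.550 (0.505 to 0.599) to 1.03 (0.918 to 1.16), KIF11 from 0.606 (0.521 to 0.703) to 1.08 (0.883 to 1.31), and KIF23 from 0.509 (0.451 to 0.574) to 0.865 (0.739 to 1.01). Of the 14 division partners, 13 were lower in the pooled comparison and 3 among undifferentiated cells. The ratio of KIF5C, 1.90 pooled (1.39 to 2.60), was 0.990 among undifferentiated cells (0.713 to 1.38).

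The 4 members lower among undifferentiated cells were KIF2B, KIF17, KIF9 and KIF26B. KIF2B had 0 UMIs in UAT and 15.6 CPM in CST, and the free RNA estimate for it in CST was 12.3 CPM. A floor of 3 counts in the UAT class made KIF2B 21.98-fold lower there, a value set by that floor. KIF17 had 3.30 CPM in UAT against 13.04 in CST, with a ratio of 0.253 (0.129 to 0.464), with a free RNA level of 2.10 CPM. The values of KIF9 were 11.8 CPM in UAT against 30.3 in CST, with a ratio of 0.389 (0.274 to 0.544), with a free RNA level of 5.87 CPM. Those of KIF26B were 12.5 against 22.1 CPM, with a ratio of 0.566 (0.395 to 0.805), with a free RNA level of 0.0798 CPM. The free RNA estimate was near the CST level of KIF2B and lower than that of the other 3. It was scaled on spermatid genes and took the profile of the whole library. Free RNA with another mix of germ stages was not tested.

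Higher in UAT among undifferentiated cells were KIF2A, at 248 against 161.5 CPM (1.54-fold, 1.39 to 1.70), and KIF1BP, at 119 against 77.5 CPM (1.53-fold, 1.33 to 1.77). KIF3A was at 158 against 118 CPM, a ratio of 1.33 (1.18 to 1.502), KIF20B at 160 against 129 CPM, a ratio of 1.24 (1.10 to 1.39), and KIF2C at 60.8 against 69.5 CPM, a ratio of 0.876 (0.736 to 1.04). In the pooled comparison KIF1C (1.64-fold) and KIF13B (1.59-fold) were also past 1.5-fold, with 1.22 (0.949 to 1.57) and 1.41 (1.06 to 1.88) among undifferentiated cells. Markers of somatic types were also found in undifferentiated cells of both libraries. The 11 Sertoli markers summed to 172 CPM in UAT, with 1 at 0, against 216.5 CPM in CST, also with 1 at 0. The Sertoli sum was thus not higher in UAT, although UAT had 805 Sertoli-like cells and CST 3. The 11 stromal markers summed to 539.8 CPM in UAT and 89.1 CPM in CST, none at 0, and the part of either in the kinesin ratios was not tested. The median UMI count of these cells was 8222 in UAT and 2702 in CST.

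**Figure D3:**
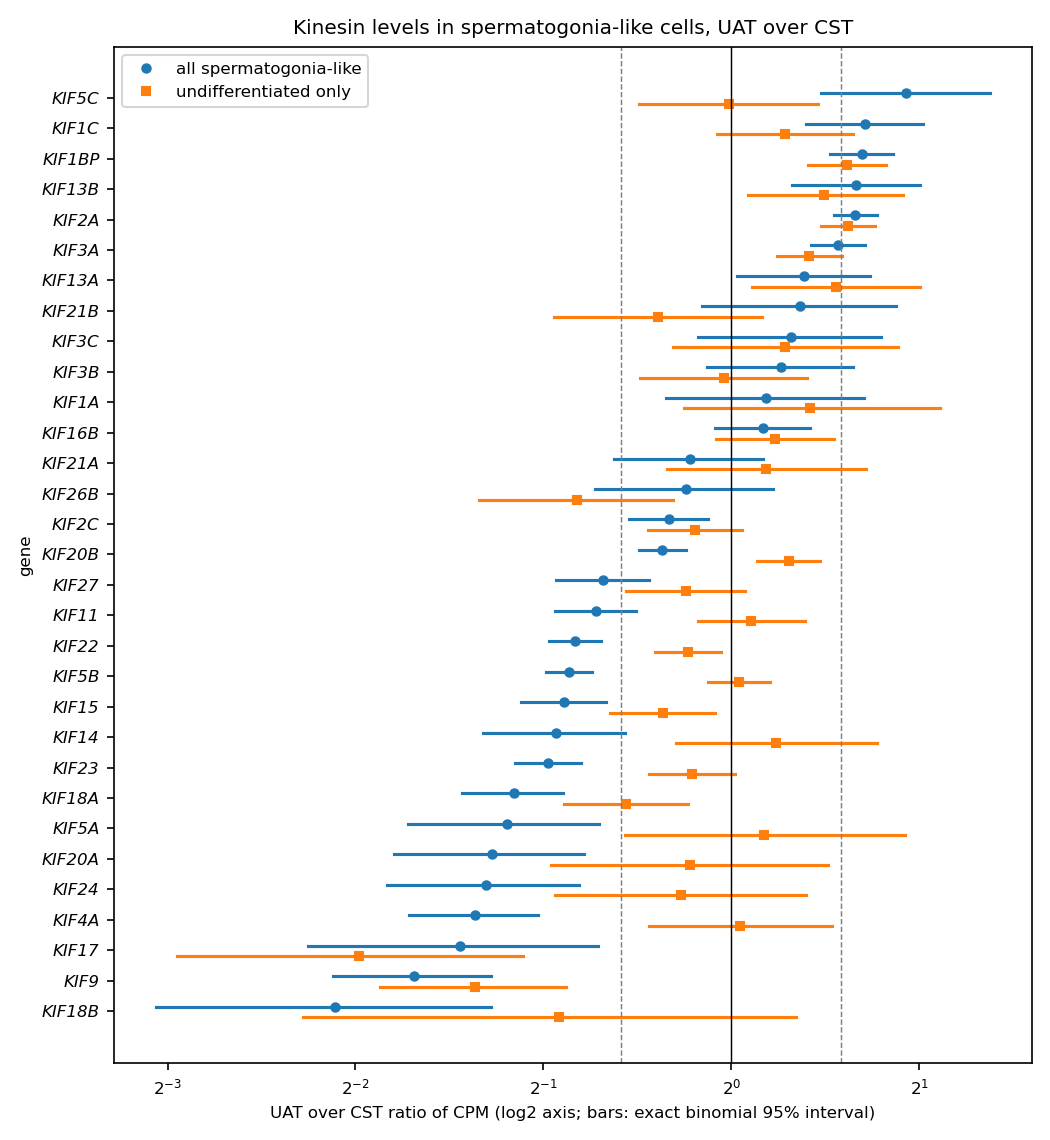
UAT over CST ratio of CPM (log2 axis) with exact binomial 95% intervals for each member measured in spermatogonia-like cells and detected in UAT, over all such cells (circles) and over undifferentiated ones alone (squares). The dashed lines mark 1.5-fold. KIF4A moves from 0.389 to 1.03, whereas KIF9 and KIF17 stay below the lower line at 0.389 and 0.253.

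Of the somatic classes with at least 50 cells in both libraries, the stromal-like, peritubular myoid-like and endothelial-like ones had members at least 1.5-fold lower in UAT, and the other 3 had 0. KIF13B was higher in UAT in those 3 and in the macrophage-like class. Of 20 members measured in stromal-like cells, 8 were at least 1.5-fold lower and 2 higher in UAT, where 17.6% and 4.94% of 10128 features were. KIF2B had 0 UMIs in UAT and 21.8 CPM in CST, with a free RNA level of 15.2 CPM, and KIF2C had 0.105 and 16.4 CPM with 10.5 CPM. KIF15 had 0.603 and 16.0 CPM with a free RNA level of 8.48 CPM, and KIF23 had 1.05 and 21.8 CPM with 5.25 CPM. KIF18A had 2.75 and 14.4 CPM with 3.24 CPM, KIF9 5.16 and 23.6 CPM with 7.27 CPM, and KIF27 7.37 and 19.9 CPM with 5.72 CPM. KIF3B, at 14.4 and 22.2 CPM, was the last of the 8 and had a free RNA level of 1.41 CPM. The estimate was at least 50% of the measured CST level for 3 of the 20 members (KIF2B, KIF2C and KIF15).

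The stromal-like members that were higher in UAT were KIF13B, at 31.5 against 17.2 CPM (1.83-fold, 1.53 to 2.21), and KIF5C, at 37.0 against 24.1 CPM (1.54-fold, 1.32 to 1.80). KIF5B, KIF22 and KIF1BP, the other members with the most UMIs, had ratios of 0.690 (0.643 to 0.741), 0.935 (0.856 to 1.02) and 0.927 (0.844 to 1.02). The positions filled different stromal-like clusters. One cluster led by PI16 and MFAP5 held 1352 of the 1718 CST cells and 7 of the 4875 UAT cells, and the cluster with most cells from both, led by C7 and LUM, held 253 CST and 2530 UAT cells. In that shared cluster 9 members were measured, 2 higher and 0 lower in UAT, with a background of 8.63% higher and 12.3% lower. The higher ones were KIF13B at 1.70-fold (1.05 to 2.93) and KIF13A at 1.62-fold (1.04 to 2.67). Of the division kinesins 2 were measured there, and of the ciliary ones 1. Most of the 8 members lower over all stromal-like cells thus did not reach the minimum there and could not be called.

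**Figure D4:**
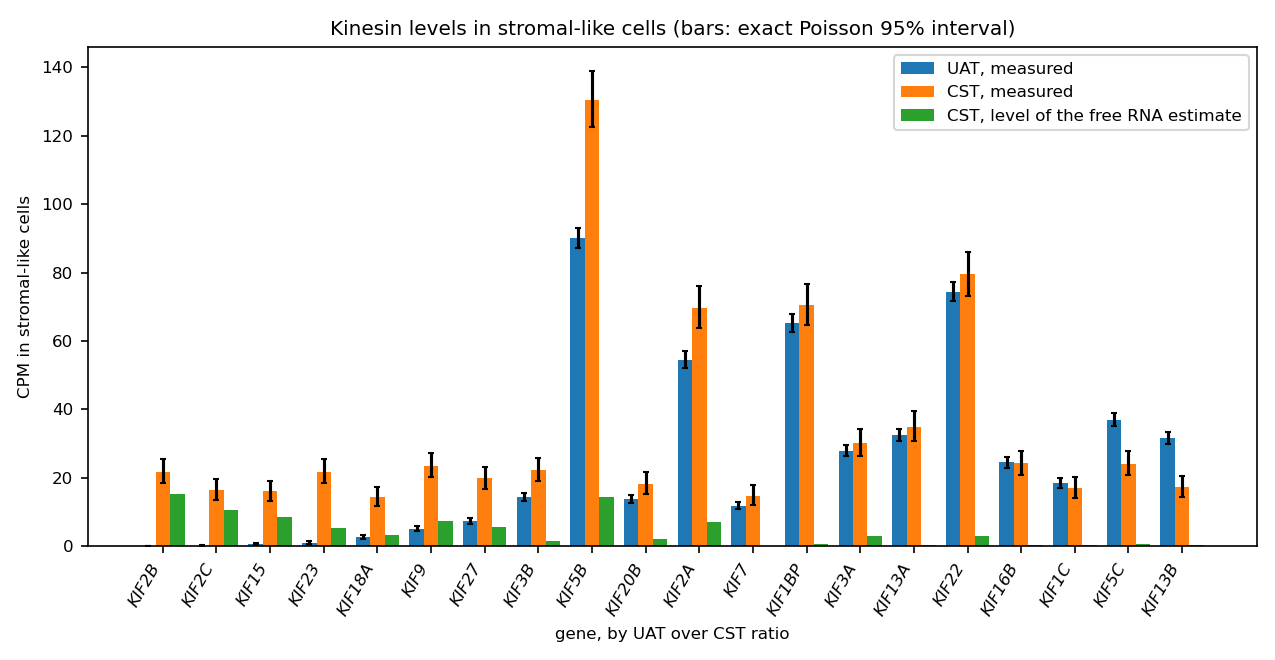
CPM of the members with at least 10 CPM and 30 UMIs in CST stromal-like cells, ordered by UAT over CST ratio, for UAT and CST with exact Poisson 95% intervals and for the free RNA estimate of CST. KIF2B and KIF2C sit at 21.8 and 16.4 CPM in CST, near their free RNA levels of 15.2 and 10.5 CPM, and KIF13B is higher in UAT at 31.5 CPM.

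Of the members, 20 were measured in peritubular myoid-like cells, which contract around the tubule wall, 7 lower and 1 higher in UAT, with a background of 16.4% lower and 9.31% higher. The lower ones were KIF2B (0 UMIs against 15.3 CPM), KIF15 (0.246 against 14.1 CPM), KIF23 (0.821 against 16.1 CPM), KIF9 (7.97 against 19.3 CPM), KIF27 (10.8 against 25.7 CPM), KIF3B (19.4 against 31.7 CPM) and KIF17 (7.64 against 12.05 CPM). In CST the free RNA levels were 11.2 CPM for KIF2B, 6.23 for KIF15, 3.86 for KIF23, 5.34 for KIF9 and 4.21 for KIF27. They were 1.03 CPM for KIF3B and 1.91 CPM for KIF17. KIF13B was higher, at 43.0 against 27.3 CPM (1.57-fold, 1.22 to 2.06), and KIF5C was at 35.4 against 24.5 CPM (1.44-fold, 1.10 to 1.92). KIF5B, KIF13A and KIF2A had ratios of 0.774, 0.874 and 0.943. The class came from different clusters in the libraries, 1515 of the 1667 UAT cells from one and 385 of the 410 CST cells from another. With a minimum of 1000 genes per cell, KIF9, KIF3B and KIF13B turned direction in this class.

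In endothelial-like cells 14 members were measured, 4 lower and 1 higher in UAT, with a background of 13.1% lower and 10.9% higher. The class included a cluster with MMRN1, RELN and PROX1 among its leading genes, of 104 UAT and 0 CST cells. The part of that cluster in the ratios was not tested. KIF13B had 40.2 CPM in UAT against 9.46 CPM in CST, the latter from 13 UMIs, a ratio of 4.25 (2.46 to 8.04). KIF13A was lower, at 40.8 against 64.1 CPM, a ratio of 0.637 (0.508 to 0.808), as were KIF22 (12.6 against 22.6 CPM), KIF9 (28.9 against 45.9 CPM) and KIF27 (7.58 against 21.8 CPM). Free RNA levels in CST were 0.493 CPM for KIF13A, 3.10 for KIF22, 7.64 for KIF9 and 6.02 for KIF27. KIF5B, KIF2A and KIF1C had ratios of 0.918, 0.896 and 0.797.

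The smaller classes gave few values, and few members could be called lower in them because a lower call needs 30 UMIs in CST. The pericyte or vascular smooth muscle-like class had 8 members measured, 2 higher and 0 lower in UAT (background 36.3% and 6.59%), KIF22 at 1.86-fold (0.700 to 6.96) and KIF20B at 2.37-fold (0.783 to 11.7). In macrophage-like cells 6 were measured, 3 higher and 0 lower (background 29.6% and 4.32%), KIF13B at 1.79-fold (0.983 to 3.63), KIF3B at 1.58-fold (0.514 to 7.88) and KIF1BP at 5.19-fold (1.41 to 43.3), which had 2 UMIs in CST. In T or NK-like cells 7 were measured, 1 higher and 0 lower (background 29.8% and 8.33%), KIF3A at 2.00-fold (0.719 to 7.73). Of these 6 intervals, that of KIF1BP alone excludes 1. KIF13B had a ratio above 1 in all 6 somatic classes compared, except in peritubular myoid-like cells with a minimum of 1000 genes. Its interval excluded 1 in the stromal-like, peritubular myoid-like and endothelial-like ones. The median log2 ratio over all features was 0.372 in the pericyte, 0.313 in the macrophage-like and 0.319 in the T or NK-like class. Ratios above 1 were thus common in these smaller classes. KIF5B had ratios of 0.956 in the pericyte, 1.11 in the macrophage-like and 0.915 in the T or NK-like class.

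Sertoli-like cells of the abdominal testis had the highest UAT levels of the cargo kinesins KIF5B, KIF5C, KIF21A and KIF1A. KIF5C had 292 CPM (282 to 303) in them and at most 37.0 CPM in any other UAT class, and 54.4% of Sertoli-like cells had a UMI of it. KIF21A had 215 CPM, with 20.3 CPM in B or plasma-like cells as the next highest. KIF5B had 385 CPM, against 255 CPM in endothelial-like cells. KIF13B had 126 CPM, next to 127 CPM in mast-like cells, and KIF1BP had 108 CPM, under the 119 CPM of undifferentiated spermatogonia-like cells. KIF1A had 14.8 CPM, close to the 11.1 CPM of undifferentiated spermatogonia-like cells. KIF4A and KIF2B had 0 UMIs in the Sertoli-like class, which allows up to 0.338 CPM at the upper interval bound. The class was named from Sertoli markers, so their presence is no separate check. None of the 11 was at 0, 9 counted as detected when its cluster was named, and SOX9 had 403 CPM.

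Some kinesins were high in immune, endothelial-like or peritubular myoid-like classes, though for several of them another class came close. In the 57 mast-like cells KIF16B had 157 CPM (121 to 201) and KIF13B 127 CPM (94.9 to 167). KIF21B had 41.5 CPM in UAT and 33.7 CPM in CST T or NK-like cells, a ratio of 1.23 (0.624 to 2.71). KIF16B was high in macrophage-like cells of both libraries, at 75.2 CPM in UAT and 85.9 CPM in CST. KIF13A was highest in peritubular myoid-like cells of both, at 66.7 and 76.3 CPM, and KIF1C in endothelial-like cells of both, at 56.3 and 70.6 CPM. Division kinesins in UAT macrophage-like cells were held by few cells. For the sum of KIF11, KIF14, KIF15, KIF18B, KIF20A, KIF23, KIF2C and KIF4A, 5 of 640 cells held 68.7% of the 83 UMIs. The top 5 cells held 9.09% of the 121 UMIs in UAT stromal-like, 16.1% of 31 in peritubular myoid-like and 17.7% of 62 in endothelial-like cells.

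**Figure D5:**
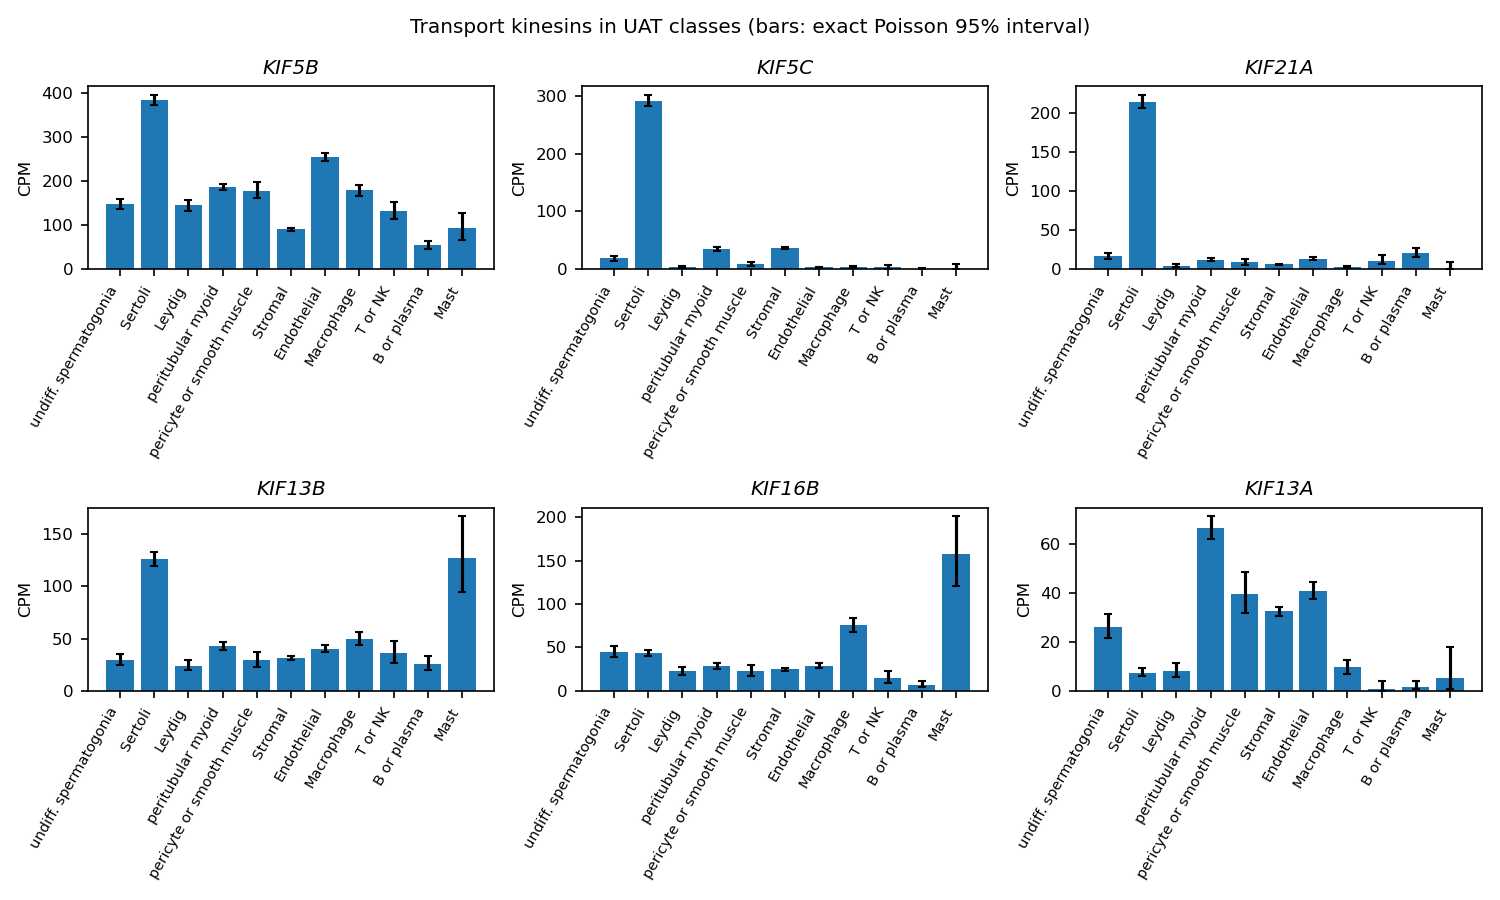
CPM (linear axes from 0, with exact Poisson 95% intervals) of 6 cargo kinesins in the UAT classes with at least 50 cells. KIF5C, KIF21A and KIF5B are highest in Sertoli-like cells at 292, 215 and 385 CPM, KIF16B in mast-like cells at 157 CPM and KIF13A in peritubular myoid-like cells at 66.7 CPM.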

How the data were processed

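Whole-number UMI counts per feature and barcode, deposited by the authors and not normalised, were used for both libraries. Cell Ranger 5.0.0 produced them, per the file headers, but 3.0.1 is the version in the submitters' processing notes, which also name mm10. Since the features carry symbols of macaque RefSeq genes, the build is not settled, and no coordinates or sequences are given.

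Barcodes with at least 500 genes were kept, and the highest scores in a simulated-doublet search (2 per cell, 30 components) were removed at 0.8% per 1000 barcodes (1221 UAT and 1800 CST cells). Cells were clustered with scanpy 1.11.5 on 2000 variable genes without kinesins or their partners, 40 components, 15 neighbours and Leiden resolution 1. Clusters were named from 18 marker lists, with at least 3 markers detected. Neither integration nor a limit on mitochondrial UMIs was used. Counts were summed per class and given as CPM with exact Poisson 95% intervals. Ratios have exact conditional binomial 95% intervals (scipy 1.17.1), tested on simulated counts. A member entered a comparison with at least 10 CPM and 30 UMIs on the higher side, and calls are by size, 2-fold between stages and 1.5-fold between positions. A side at 0 was set to a floor of 3 counts. In CST, free RNA was taken as the class level of PRM1, PRM2, TNP1 and HMGB4 over that of the library, times the library profile. Named were all measured members by role, in positions those past 1.5-fold and the 3 others with most UMIs. Partner genes were named by most UMIs, and KIFAP3, KLC3 and the marker genes outside that rule, after their values were seen. The members, gene lists and comparisons were chosen with earlier results of these data known. The labels do not say whether both testes came from the same animals.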

Additional observations from a re-analysis of the deposited data

Results flagged for a closer look

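KIF26A, an atypical kinesin, is listed under a LOC name only and received its symbol from a RefSeq gene table, so it was not counted among the members. It had 54.2 CPM in CST differentiating spermatogonia-like cells, data outside the member comparisons. In undifferentiated spermatogonia-like cells it had 24.8 CPM in UAT and 24.6 CPM in CST, a ratio of 1.01 (0.758 to 1.34), and in CST spermatocyte-like cells 0.105 CPM.

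The CST cells that received no class, 963 cells mostly of low UMI count, had KIF5B at 234 CPM, KIF15 at 183 CPM and KIF2B at 164 CPM. They entered no comparison.

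KIF13A had UAT over CST ratios in opposite directions, 0.637 in endothelial-like cells and 1.62 in the shared stromal-like cluster. The difference between the classes was not tested, and over all stromal-like cells the ratio was 0.931 (0.815 to 1.07).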

How the results depend on the processing

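Each count was recomputed with 200 or 1000 genes as the minimum, doublets kept, Leiden resolution 0.5 or 2, separate clustering, classes by the marker score of each cell, median-ratio scaling, a minimum of 5 or 20 CPM, cells weighted alike, and free RNA subtracted. Of the counts under these and the added settings, 104 stayed within 1.5 times and 5 did not. Somatic pairs of a member and a class at least 1.5-fold lower in UAT, 19 as reported, were 10 with a minimum of 20 CPM, 12 with free RNA subtracted and 4 with the shared stromal-like cluster and without peritubular myoid-like cells. Members higher and lower in UAT spermatogonia-like cells, 5 and 16, were 2 and 4 among undifferentiated cells. The last 2 settings were chosen after seeing the data. In the shared stromal-like cluster, most members lower over all stromal-like cells did not reach the minimum, so they could not be called lower there. Of single log2 ratios, 867 moved less than the counting interval, 177 moved more and 3 turned, all in peritubular myoid-like cells with a minimum of 1000 genes: KIF9 to 0.38, KIF3B to 0.39 and KIF13B to -0.30. The cause was not tested. Clustered alone, UAT had no cluster called spermatogonia-like, so that setting gave no spermatogonia value, and median-ratio scaling gave none for the number of measured members. No paired analysis was possible because each position had 1 library. Depth limits the classes of under 150 CST cells, where intervals of single ratios span several fold.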
